A study of Mus musculus with 30 samples.

Results

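Adipose tissue macrophages (ATMs) of obese mice treated with an anti–IL-17A antibody were compared with ATMs of lean WT recipients, to measure what still differed from lean macrophages after the treatment. The comparison used the 3 libraries labelled IL17A and the 3 labelled WT, which are 6 of the 15 ATM libraries and 6 of the 30 libraries in the series, and all 17059 genes of the ATM count table. Recipients in the study, lean and obese, were lethally irradiated (700 plus 400 cGy) and given equal numbers of CD45.2+ BM cells from Shp2E76K/+ mice carrying LysM-Cre, in which Cre acts in myeloid cells and turns on a gain-of-function form of the phosphatase SHP2, and CD45.1+ Boy/J competitor BM cells. At 8 weeks after transplantation, Ob/Ob recipients, which lack leptin and become obese, received anti–IL-17A for 30 days (200 µg per mouse i.p., 3 times per week), and F4/80+ cells were then sorted from visceral fat. Ob/Ob mice given vehicle (3 libraries, hereafter Vehicle) give the level in obese mice without the antibody.

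The labels place all of these libraries in 1 batch and describe the mice as 12 to 14 weeks old and of both sexes, whereas the methods of the study give a younger range. They name each library a biological replicate but give no sex or donor for a single library. A legend in the study names WT donor cells in an ATM comparison, so a difference in donor between the WT and the other groups cannot be told apart from the recipient genotype. No lean recipients received the antibody, and a 30-day treatment is given for the obese groups but not for the WT recipients. The anti–IL-17A and WT libraries thus differ in the recipient genotype, the antibody and any such treatment course. The Vehicle libraries give the antibody contrast within obese recipients only. The sort did not separate mutant, competitor and surviving host macrophages, and in these bulk samples fewer cells of a type and less RNA per cell cannot be told apart.

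In lean fat, macrophages that carry LYVE1, TIM4, CD163 and CD209-family lectins lie along vessels and take up debris and iron. In obese fat, macrophages gather around dying adipocytes and turn on TREM2, GPNMB, osteopontin, lipases and lysosomal enzymes, a state called the lipid-associated macrophage. IL-17A signals through the receptor chains IL-17RA and IL-17RC and the adaptor ACT1 to NF-κB and IκBζ, and it induces neutrophil chemokines, acute-phase proteins and matrix proteases, mostly in stromal and epithelial cells.

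Total counts ran from 24876074 to 28369275 in the WT libraries, from 27229278 to 30195059 in the Vehicle libraries and from 39818065 to 45300263 in the anti–IL-17A libraries. For genes averaging 1000 counts or more, the median coefficient of variation between replicates was 6.11% in WT and 7.51% in anti–IL-17A libraries. Levels are given as normalized counts, which are counts divided by the library's TMM-scaled size and multiplied by the mean scaled size of the ATM libraries. Levels of different genes are not compared, because the counts are not divided by length.

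The sorted libraries also held RNA of other tissues. Genes of the epididymis list took 2.64–2.66% of the counts in the WT libraries, 0.0275–0.0311% in the anti–IL-17A libraries and at most 0.00217% in the Vehicle libraries. Seminal vesicle genes took 0.0452–0.0501% of the counts in the anti–IL-17A libraries and 0.00208–0.00239% in the WT libraries. Mesothelial genes took 0.229–0.238% in WT and 0.00899–0.0104% in anti–IL-17A libraries. The epididymis and mesothelial shares thus varied little between the WT libraries. Whether each library came from a separate mouse was not tested, so SEs and p-values describe the spread between libraries. Xist, expressed from the inactive X chromosome, lay between 8.42 and 26.1 in WT and between 0 and 40.6 in anti–IL-17A libraries but between 998 and 1533 in Vehicle libraries, and the Y-linked gene Ddx3y lay at 3678–3767, 2671–3093 and 247–537. Sex-linked transcripts thus set the Vehicle libraries apart from the other groups, and the part of sex in any difference from Vehicle was not tested. The part of the other-tissue RNA in the gene lists below was not tested.

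Of the 17059 genes, 3189 (18.7%) were called, meaning an adjusted p below 0.05 by edgeR's quasi-likelihood test with a log2 fold change beyond 1 in either direction. Without the fold limit 6531 (38.3%) passed, 3436 (20.1%) as higher and 3095 (18.1%) as lower. Of the called genes, 1647 (9.65% of all genes) were higher and 1542 (9.04%) were lower in anti–IL-17A than in WT libraries. A difference over 4-fold was found for 837 of the higher and 690 of the lower genes. For 167 of the higher genes the WT libraries, and for 106 of the lower genes the anti–IL-17A libraries, held at most 3 counts each. The median log2 fold change over all genes was -0.00, and it was -1.52 when libraries were scaled on 12 macrophage identity genes, an alternative chosen after seeing the data. Under that scaling 416 genes were called higher and 11265 lower, so directions below are relative to the bulk of genes, and each macrophage and pathway list is given under both scalings for the comparison with WT.

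**Figure D1:**
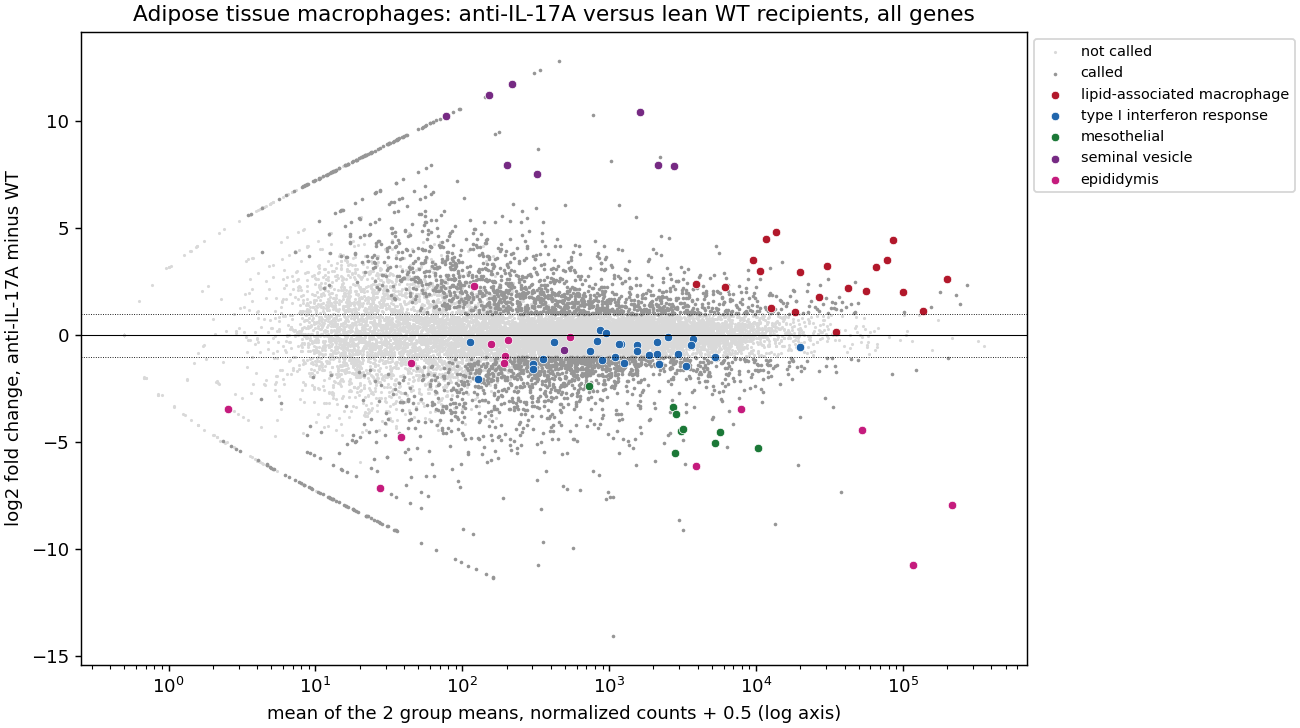
Each point is 1 of the 17059 genes, with the mean of both group means, in normalized counts plus 0.5, on the x axis (log scale) and the log2 fold change of anti–IL-17A against WT on the y axis. The 1647 genes called higher and the 1542 called lower lie on both sides of a median of -0.00. Colours mark the lipid-associated macrophage, type I interferon response, mesothelial, seminal vesicle and epididymis lists.

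Macrophage markers were detected in all 3 groups and were higher in the anti–IL-17A libraries, and the purity of the sort was not tested. The 12 identity genes took 0.456–0.477% of the counts in WT, 0.284–0.297% in Vehicle and 1.53–1.55% in anti–IL-17A libraries. Fibroblast and adipose progenitor genes took more than the identity genes in every group. Their shares were 3.26–3.36% in WT, 0.924–1.01% in Vehicle and 2.63–2.68% in anti–IL-17A libraries. Neutrophil genes also took more than the identity genes in Vehicle libraries (1.82–1.91%). Of the 12 identity genes, 8 rose and 0 fell (18.7% of all genes were called in either direction), with a median log2 fold change of 1.60. With scaling on these same genes, 1 rose and 0 fell, with a median of 0.07. Cd68, which encodes a lysosomal membrane glycoprotein of phagocytes, measured 8719, 8651 and 8674 in WT, 17294, 16764 and 18328 in Vehicle, and 52833, 55026 and 52033 in anti–IL-17A libraries. All anti–IL-17A values lay above all others, where 55.9% of all genes had no overlap with WT and 61.5% none with Vehicle, and the log2 fold change against WT was 2.62 (SE 0.04, adjusted p = 3.08e-16, edgeR). Adgre1, which encodes the sort marker F4/80, measured 6387, 6731 and 7619 in WT, 1002, 1738 and 1471 in Vehicle, and 29674, 28752 and 28678 in anti–IL-17A libraries. The 3 groups did not overlap for this gene, with Vehicle lowest, and the log2 fold change against WT was 2.07 (SE 0.13, adjusted p = 2.8e-09, edgeR). Lyz2, the lysozyme gene whose promoter drives LysM-Cre, rose by 2.01 on the log2 scale, and Tyrobp, the signaling adaptor of TREM2, by 2.10. Csf1r, the receptor that keeps macrophages alive, had a log2 fold change of 0.88, which did not pass the fold limit, and Mertk, an efferocytosis receptor, one of 0.68.

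**Figure D2:**
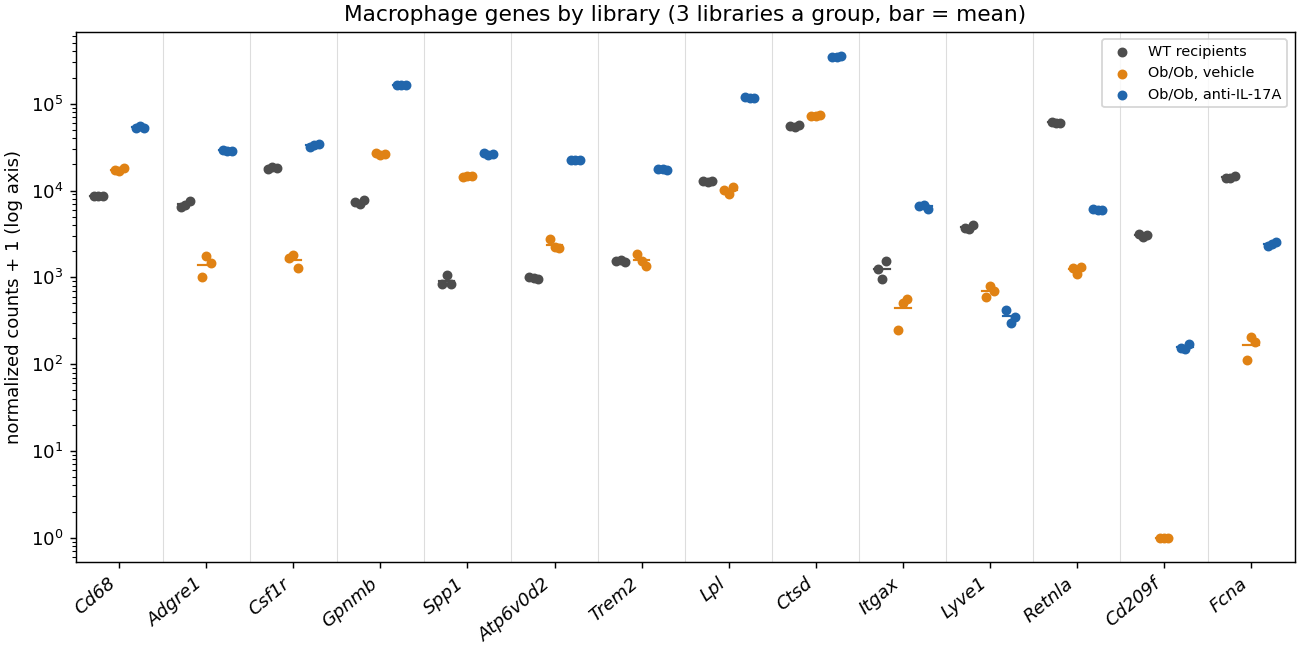
Normalized counts plus 1 (log axis) of 14 macrophage genes in each WT, Vehicle and anti–IL-17A library; a point is a library and a bar the mean of 3. Gpnmb, Trem2 and Lpl are highest in the anti–IL-17A libraries, whereas Lyve1, Retnla, Cd209f and Fcna are highest in the WT libraries.

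The lipid-associated macrophage genes lay furthest above the WT level of the 5 macrophage lists (identity, lipid-associated, resident, alternative activation and monocyte). Of 20 genes, 19 rose and 0 fell, where 9.65% of all genes were called higher, and their median log2 fold change was 2.51. With scaling on the macrophage identity genes, 10 were called higher and 1 lower, with a median of 0.99. Together they took 1.12–1.14% of the counts in WT, 1.58–1.60% in Vehicle and 4.99–5.04% in anti–IL-17A libraries, and against Vehicle 14 were called higher and 1 lower with a median of 1.75, where 22.4% of all genes were called higher. With scaling on the macrophage identity genes, 8 were higher and 4 lower than Vehicle, with a median of 0.33. Gpnmb (chr6:49036546-49070929, plus strand, GRCm38), which encodes a glycoprotein of lysosome-rich macrophages, measured 7349, 7052 and 7758 in WT, 27196, 25330 and 26392 in Vehicle, and 162534, 162780 and 163832 in anti–IL-17A libraries. The obese groups both lay above WT, and the log2 fold change was 4.46 against WT (SE 0.04, adjusted p = 1.66e-19, edgeR) and 2.63 against Vehicle. Spp1 (chr5:104435118-104441050, plus strand), which encodes osteopontin, measured 840, 1061 and 827 in WT, 14290, 14517 and 14551 in Vehicle, and 26702, 25852 and 26284 in anti–IL-17A libraries. Here the Vehicle libraries lay much nearer the anti–IL-17A level, with log2 fold changes of 4.85 against WT (SE 0.09, adjusted p = 2.11e-15, edgeR) and 0.86 against Vehicle, the latter short of the fold limit. The exons of Spp1 share 18.8% of their bases with Gm42793.

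Trem2 (chr17:48346401-48354147, plus strand), the lipid receptor that marks this state, separated the obese groups. It measured 1547, 1574 and 1492 in WT, 1866, 1537 and 1341 in Vehicle, and 17483, 17573 and 17115 in anti–IL-17A libraries. WT and Vehicle overlapped and the anti–IL-17A libraries lay apart, with a log2 fold change of 3.50 against WT (SE 0.09, adjusted p = 4.32e-14, edgeR). Lpl, the lipoprotein lipase gene, also had its highest values after treatment, and measured 12816, 12490 and 12810 in WT, 10208, 9000 and 11119 in Vehicle, and 118345, 116092 and 117435 in anti–IL-17A libraries (log2 fold change against WT 3.21, SE 0.06). Atp6v0d2, a subunit of the lysosomal proton pump, rose by 4.51 on the log2 scale, Lgals3, the galectin-3 gene, by 3.54, Mmp12, the macrophage elastase gene, by 3.23, and Lipa, the lysosomal acid lipase gene, by 2.98. Itgax, which encodes CD11c, measured 1255, 961 and 1559 in WT, 246, 509 and 561 in Vehicle, and 6674, 6790 and 6183 in anti–IL-17A libraries. Fabp4, the fatty acid binding protein shared by macrophages and adipocytes, was the exception, at 33229, 32815 and 33175 in WT, 130126, 131985 and 138466 in Vehicle, and 37732, 36601 and 34886 in anti–IL-17A libraries. Its log2 fold change was 0.14 against WT, which was not called, and it fell by 1.87 on the log2 scale against Vehicle.

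Lysosomal genes, of which Ctsd and Ctsl also belong to the lipid-associated macrophage list, rose alongside. Of 20 genes, 11 were called higher and 0 lower, where 9.65% of all genes were called higher. Their median log2 fold change was 1.47, but with scaling on the macrophage identity genes 2 were higher and 3 lower with a median of -0.06. The list took 1.39–1.45% of the counts in WT, 1.40–1.42% in Vehicle and 5.21–5.30% in anti–IL-17A libraries. Ctsd, which encodes the aspartic protease cathepsin D, measured 54957, 54364 and 57284 in WT, 72812, 72537 and 73487 in Vehicle, and 343017, 343019 and 351561 in anti–IL-17A libraries. All anti–IL-17A values exceeded all others, and the log2 fold change against WT was 2.64 (SE 0.02, adjusted p = 1.66e-19, edgeR). The exons of Ctsd share 34.4% of their bases with Gm49369, so part of its reads could belong to that gene. Gusb, the beta-glucuronidase gene, rose by 2.61 on the log2 scale and Ctss, the cathepsin S gene, by 2.47. Lamp1, a membrane glycoprotein of the lysosome, had a log2 fold change of 0.88 and Tfeb, a transcription factor of lysosomal genes, one of 0.64, both short of the fold limit.

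Promoter windows, from 250 bases before to 50 bases after the annotated start (RefSeq, GRCm38.p6), are shown for 1 gene of each of these lists because the members moved together. The words searched on both strands were the E-box CACGTG and the M-box TCACATG, which bind MiT/TFE transcription factors. Of the lysosome genes, 16 matched, and 7 of their 20 windows held the E-box (35%, against 7.15% of all 32851 windows and 9.12% of the windows of genes tested) and 3 the M-box (15%, against 3.99% and 2.61%). Of the lipid-associated macrophage genes, 15 matched, with the E-box in 3 of 19 windows (15.8%) and the M-box in 1 (5.26%). The E-box windows were those of Ctsd, Ctsl and Plin2, and those of Ctsd and Ctsl count in the lysosome list as well. Neither window shown holds both words, so no match overlaps another, and capitals mark a match. In Ctsd (chr7:142387778-142388077, minus strand) the E-box begins 245 and 98 bases before the start, and in Mmp12 (chr9:7347124-7347423, plus strand) the M-box begins 84 bases before it. A match is a description of the letters and no evidence that a factor binds there.
Ctsd: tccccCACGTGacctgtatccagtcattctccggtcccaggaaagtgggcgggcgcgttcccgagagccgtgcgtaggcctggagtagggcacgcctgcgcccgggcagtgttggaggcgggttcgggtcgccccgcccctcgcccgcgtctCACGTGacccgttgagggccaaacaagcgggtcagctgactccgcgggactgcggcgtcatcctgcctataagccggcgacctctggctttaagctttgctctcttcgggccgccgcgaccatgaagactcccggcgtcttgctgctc
Mmp12: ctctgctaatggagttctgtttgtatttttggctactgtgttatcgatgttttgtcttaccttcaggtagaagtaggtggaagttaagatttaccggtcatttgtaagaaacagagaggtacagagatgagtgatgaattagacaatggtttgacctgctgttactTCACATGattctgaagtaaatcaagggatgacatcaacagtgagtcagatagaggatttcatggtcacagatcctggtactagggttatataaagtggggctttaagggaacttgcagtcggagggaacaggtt

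Resident macrophage genes went both ways, with Lyve1, Cd209f and Fcna among those below the lean level. Of 20 genes, 10 fell and 3 rose, where 9.04% of all genes were called lower, and the median log2 fold change was -0.72 (-2.24 with scaling on the macrophage identity genes, where 14 fell and 0 rose). Against Vehicle, 16 of the 20 were higher and 0 lower, where 22.4% of all genes were called higher, with a median of 3.21. With scaling on the macrophage identity genes, 11 were higher and 4 lower than Vehicle, with a median of 1.80. Lyve1 (chr7:110850607-110863239, minus strand), the hyaluronan receptor gene, measured 3692, 3616 and 3995 in WT, 590, 798 and 703 in Vehicle, and 422, 298 and 351 in anti–IL-17A libraries. The anti–IL-17A libraries were lowest, and the log2 fold change against WT was -3.40 (SE 0.21, adjusted p = 2.32e-09, edgeR). Cd209f, a C-type lectin gene, measured 3192, 2929 and 3058 in WT, 0, 0 and 0 in Vehicle, and 152, 148 and 169 in anti–IL-17A libraries. Fcna, the ficolin A gene, measured 13870, 14117 and 14642 in WT, 110, 204 and 177 in Vehicle, and 2281, 2414 and 2574 in anti–IL-17A libraries, a log2 fold change of -2.55 against WT and 3.90 against Vehicle. For Cd209f and Fcna the anti–IL-17A libraries thus lay between the Vehicle and the WT libraries without overlap. Timd4, which encodes TIM4, had a log2 fold change of -2.21, and Cd163, the haptoglobin-hemoglobin scavenger receptor gene, one of -1.11. Timd4 lost its call without anti–IL-17A replicate 1 (adjusted p = 0.0572, edgeR), anti–IL-17A replicate 3 (0.0725) or WT replicate 1 (0.0593), and Cd163 without anti–IL-17A replicate 2 (log2 fold change -0.95) or WT replicate 1 (-0.999). In the other direction, Cd5l, which encodes a secreted scavenger protein, rose by 2.28 on the log2 scale. Mrc1, which encodes CD206, measured 5008, 4783 and 5434 in WT, 140, 178 and 470 in Vehicle, and 6329, 6132 and 6073 in anti–IL-17A libraries, a log2 fold change against WT of 0.28 that was not called (adjusted p = 0.377, edgeR).

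Genes of alternative activation divided in a similar way. Of 20 genes, 5 rose and 6 fell, where 9.65% of all genes were called higher and 9.04% lower. The median log2 fold change was -0.30 (-1.82 with scaling on the macrophage identity genes, where 2 rose and 14 fell). Retnla (chr16:48842551-48844461, plus strand), which encodes the secreted protein RELMα, measured 62282, 60692 and 60581 in WT, 1289, 1101 and 1311 in Vehicle, and 6070, 6034 and 5896 in anti–IL-17A libraries. The groups did not overlap, and the log2 fold change was -3.35 against WT (SE 0.06, adjusted p = 7.05e-16, edgeR) and 2.28 against Vehicle. Mgl2, a galactose-type lectin gene, fell by 2.15 on the log2 scale and Ccl24, the eotaxin-2 gene, by 2.21. Chil3, which encodes the chitinase-like protein Ym1, went the other way, at 260, 371 and 231 in WT, 24218, 22484 and 22866 in Vehicle, and 3750, 3325 and 3235 in anti–IL-17A libraries. Its log2 fold change was 3.58 against WT (SE 0.12, adjusted p = 1.59e-12, edgeR) and -2.75 against Vehicle, so the treated libraries lay between the other groups. Arg1, the arginase gene, had a log2 fold change of 0.89 and was not called.

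Type I interferon response genes, at their highest in Vehicle libraries, lay below the lean level after anti–IL-17A. Of 28 genes, 10 fell and 0 rose, where 9.04% of all genes were called lower, the log2 fold change was negative for 26, and the median was -0.72 (-2.25 with scaling on the macrophage identity genes, where all 28 fell). Without the fold limit, 22 of the 28 passed as lower and 0 as higher. The list took 0.256–0.263% of the counts in WT, 3.35–3.39% in Vehicle and 0.152–0.158% in anti–IL-17A libraries, and all 28 fell against Vehicle under both scalings, where 13.1% of all genes were called lower, with a median log2 fold change of -4.99 (-6.40 with scaling on the macrophage identity genes). Ifit1, which encodes an inhibitor of viral translation, measured 4605, 5037 and 4875 in WT, 108240, 101940 and 105436 in Vehicle, and 1676, 2021 and 1712 in anti–IL-17A libraries. Each anti–IL-17A value lay below each WT value, and the log2 fold change was -1.42 against WT (SE 0.06, adjusted p = 4.16e-11, edgeR) and -5.87 against Vehicle. Rsad2, which encodes viperin, measured 6687, 6914 and 7541 in WT, 193023, 206420 and 210339 in Vehicle, and 3602, 3464 and 3432 in anti–IL-17A libraries, a log2 fold change of -1.01 against WT that lay just past the fold limit and just short of it with DESeq2 size factors (-0.99) or without anti–IL-17A replicate 2 (-0.998), anti–IL-17A replicate 3 (-0.996) or WT replicate 3 (-0.96). Mx2, an antiviral GTPase gene, fell by 2.06 on the log2 scale and Oas2, an oligoadenylate synthetase gene, by 1.59. Irf7 (chr7:141262706-141266481, minus strand), the transcription factor that amplifies type I interferon, measured 3665, 3778 and 3886 in WT, 174448, 169563 and 174818 in Vehicle, and 1941, 2130 and 2183 in anti–IL-17A libraries. Its log2 fold change of -0.86 against WT did not reach the fold limit (adjusted p = 2.79e-08, edgeR), nor did that of Isg15, a ubiquitin-like protein gene, at -0.45.

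Promoter windows of a pair of interferon genes that fell are shown, one with a match and one without, because 26 of the 28 genes had a negative log2 fold change. The motif searched on both strands was the core of the interferon-stimulated response element (ISRE), written as GAAA, any 2 bases, and GAAA again. It stood in 14 of the 23 windows of the 20 matched genes (60.9%), against 3.44% of all windows and 3.14% of those of genes tested. Of the genes that fell, Ifit1, Ifit3, Ifit3b and Rsad2 had a match in a window, and Oasl2 and Ifi44 had windows without one. Ifi44 lost its call without any 1 anti–IL-17A replicate, WT replicate 1 or WT replicate 2 (adjusted p from 0.0685 to 0.104, edgeR). The match begins 104 and 85 bases before the start of Ifit1 (chr19:34640639-34640938, plus strand), on the opposite strand, where capitals mark it. The window of Oasl2, an oligoadenylate synthetase-like gene (chr5:114896684-114896983, plus strand), holds none, which says only that these letters are not in it.
Ifit1: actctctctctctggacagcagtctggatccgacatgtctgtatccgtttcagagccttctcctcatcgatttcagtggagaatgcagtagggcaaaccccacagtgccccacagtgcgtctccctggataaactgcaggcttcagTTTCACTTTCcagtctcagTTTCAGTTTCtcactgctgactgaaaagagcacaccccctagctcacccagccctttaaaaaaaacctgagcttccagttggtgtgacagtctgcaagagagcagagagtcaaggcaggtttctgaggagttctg
Oasl2: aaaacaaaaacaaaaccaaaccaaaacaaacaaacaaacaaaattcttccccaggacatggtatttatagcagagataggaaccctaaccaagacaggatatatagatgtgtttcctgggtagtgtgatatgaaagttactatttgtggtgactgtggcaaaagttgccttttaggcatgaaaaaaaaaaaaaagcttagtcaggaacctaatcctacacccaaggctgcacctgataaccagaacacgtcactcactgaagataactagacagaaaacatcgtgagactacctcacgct

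**Figure D3:**
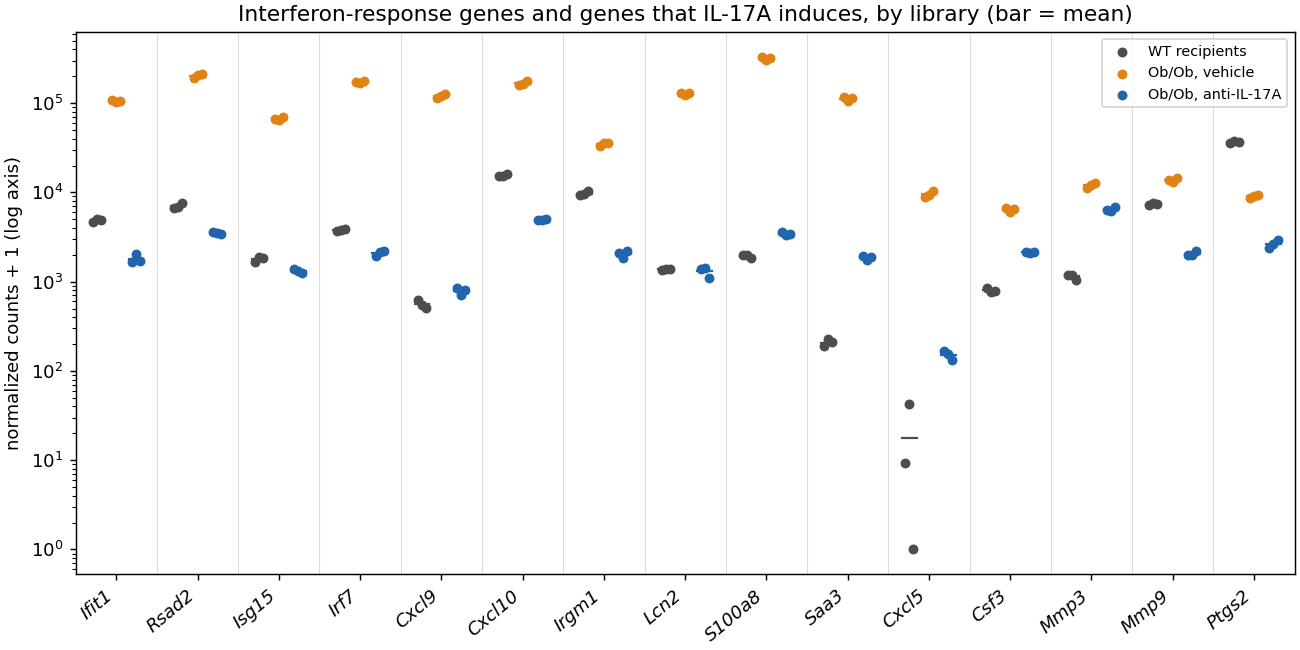
Normalized counts plus 1 (log axis) of 15 interferon-response and IL-17A target genes in each WT, Vehicle and anti–IL-17A library; a point is a library and a bar the mean of 3. Ifit1, Rsad2 and Irf7 are highest in Vehicle and lowest in anti–IL-17A libraries, while Saa3 and Mmp3 in anti–IL-17A libraries stay between WT and Vehicle.

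Guanylate-binding proteins and other IFN-γ targets followed, with 8 of 21 called lower and 0 higher, where 9.04% of all genes were called lower. The median log2 fold change was -0.84 (-2.37 with scaling on the macrophage identity genes, where 19 fell). Irgm1 (chr11:48861968-48871683, minus strand), an immunity-related GTPase gene, measured 9391, 9493 and 10228 in WT, 33299, 35868 and 35468 in Vehicle, and 2115, 1857 and 2195 in anti–IL-17A libraries. Its log2 fold change was -2.24 against WT and the groups did not overlap. Ido1, the tryptophan-degrading enzyme gene, fell by 2.98 on the log2 scale. Cxcl10, a T cell chemokine gene, measured 15073, 15434 and 16180 in WT, 160001, 163330 and 176998 in Vehicle, and 4898, 4900 and 5006 in anti–IL-17A libraries, a log2 fold change of -1.66 against WT. Cxcl9, another ligand of the same receptor, had a log2 fold change of 0.50 against WT, which was not called, and of -7.24 against Vehicle. The ISRE core stood in 11 of 19 windows of these genes (57.9%).

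Among the IL-17 cytokines, receptors and adaptors, most members did not pass the test against WT. Of 24 genes, 5 fell and 0 rose (20.8% called), where 9.04% of all genes were called lower and 18.7% in either direction. The median log2 fold change was -0.03 (-1.55 with scaling on the macrophage identity genes, where 21 fell). Without anti–IL-17A replicate 3, 3 fell, and without WT replicate 2 the median was 0.07. Il17a itself measured 29.8, 47.3 and 22.9 in WT, 212, 172 and 278 in Vehicle, and 36.4, 33.7 and 27.2 in anti–IL-17A libraries. The WT and anti–IL-17A values overlapped and the log2 fold change was -0.04 (adjusted p = 0.973, edgeR), against -2.76 relative to Vehicle. Il17ra, the receptor chain common to the family, measured 3774, 3978 and 3635 in WT, 8775, 9241 and 8259 in Vehicle, and 2888, 2757 and 3048 in anti–IL-17A libraries, a log2 fold change against WT of -0.39 that was short of the fold limit. Below WT lay Il17rc, the second chain of the IL-17A receptor, at -1.11 (-0.998, short of the limit, without anti–IL-17A replicate 3), Il17re, a receptor chain for IL-17C, at -2.87, and Traf3ip2, which encodes ACT1, at -1.33 on the log2 scale. Nfkbiz (chr16:55811375-55838899, minus strand), which encodes IκBζ, measured 22684, 23434 and 24645 in WT, 31668, 33426 and 33850 in Vehicle, and 9993, 10069 and 9869 in anti–IL-17A libraries. Its log2 fold change against WT was -1.24 (SE 0.04, adjusted p = 3.52e-13, edgeR), with no overlap between the groups.

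Of 24 genes that IL-17A induces, 22 fell and 0 rose against Vehicle, where 13.1% of all genes were called lower. Against WT, where 18.7% of all genes were called, 5 rose and 5 fell, and their median stood at -0.02 on the log2 scale (-1.54 with scaling on the macrophage identity genes, where 2 rose and 16 fell), beside a median of -2.37 against Vehicle (-3.79 with that scaling, where all 24 fell). Ptgs2 (chr1:150100031-150108227, plus strand), the inducible cyclooxygenase gene, measured 36059, 37817 and 37080 in WT, 8623, 9021 and 9458 in Vehicle, and 2365, 2627 and 2908 in anti–IL-17A libraries. The order WT, Vehicle, anti–IL-17A held with no overlap, and the log2 fold change against WT was -3.81 (SE 0.08, adjusted p = 6.4e-15, edgeR). Csf2, which encodes GM-CSF, fell by 1.94 on the log2 scale, Mmp9, the gelatinase B gene, by 1.85, and Cebpd, a transcription factor of acute-phase genes, by 1.44. Saa3 (chr7:46711998-46715700, minus strand), an acute-phase serum amyloid gene, stayed above the lean level, at 187, 224 and 208 in WT, 118318, 105108 and 114249 in Vehicle, and 1931, 1762 and 1902 in anti–IL-17A libraries. Its log2 fold change was 3.17 against WT (SE 0.07, adjusted p = 1.67e-14, edgeR) and -5.92 against Vehicle. Also above WT were Cxcl5, a neutrophil chemokine gene, by 3.12, Mmp3, the stromelysin-1 gene, by 2.51, and Csf3, which encodes G-CSF, by 1.42 on the log2 scale (-0.10 with scaling on the macrophage identity genes). Lcn2, a siderophore-binding protein gene, measured 1348, 1381 and 1400 in WT, 130872, 122628 and 131456 in Vehicle, and 1383, 1417 and 1097 in anti–IL-17A libraries, so that WT and anti–IL-17A libraries overlapped (log2 fold change -0.08).

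Of 29 inflammatory cytokine and NF-κB genes, 4 rose and 2 fell against WT, where 18.7% of all genes were called, and the median log2 fold change was 0.05 (-1.48 with scaling on the macrophage identity genes, where 22 fell and 0 rose). Tnf measured 1952, 1497 and 1737 in WT, 21235, 19207 and 21218 in Vehicle, and 2144, 2419 and 2155 in anti–IL-17A libraries, a log2 fold change against WT of 0.37 that was not called. Il1b had a log2 fold change of 0.33 against WT, also not called, and one of -2.35 against Vehicle. Casp1, the protease that matures IL-1β, rose by 1.57 on the log2 scale, whereas Il18 fell by 1.39.

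Chemokine genes also divided, and shares are read against the 9.65% of all genes called higher and the 9.04% called lower. Of 27, 7 rose and 6 fell, with a median log2 fold change of 0.08 (-0.06 without WT replicate 2, and -1.44 with scaling on the macrophage identity genes, where 2 rose and 18 fell). Ccl5, a gene for a chemokine that draws T cells, measured 2905, 2477 and 2699 in WT, 50138, 42669 and 48991 in Vehicle, and 9253, 9270 and 8437 in anti–IL-17A libraries, a log2 fold change of 1.74 against WT. Cxcl14 rose by 2.79 on the log2 scale, and Cxcl13, which draws B cells, fell by 1.91. Of 18 chemokine and migration receptors, 7 rose and 0 fell, with a median of 0.74, whereas with scaling on the macrophage identity genes 0 rose and 8 fell with a median of -0.78. C3ar1, the C3a receptor gene, was highest among them at 2.04 on the log2 scale. Ccr2, the receptor of recruited monocytes, had a log2 fold change of 0.28 and was not called (adjusted p = 0.071, edgeR). Of 14 monocyte genes, 3 rose (1 without anti–IL-17A replicate 3) and 3 fell, with a median log2 fold change of -0.53 (-2.05 with scaling on the macrophage identity genes), and Plac8, which is abundant in blood monocytes, fell by 2.67 on the log2 scale.

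Checkpoint genes held 5 of 16 members called higher and 0 lower, where 9.65% of all genes were called higher. Their median log2 fold change was 0.32 (-1.20 with scaling on the macrophage identity genes, where 1 rose and 10 fell). Havcr2, which encodes TIM-3, rose by 2.54 and Sirpa, the CD47 receptor gene, by 1.98 on the log2 scale. Pdcd1, which encodes PD-1, measured 1086, 932 and 960 in WT, 1730, 1814 and 1889 in Vehicle, and 3741, 4228 and 4569 in anti–IL-17A libraries, a log2 fold change of 2.07 against WT with no overlap. Tigit rose by 1.59 and Ctla4 by 1.44 on the log2 scale (-0.078 with scaling on the macrophage identity genes). T cell genes moved with these receptors: of 11, 9 rose and 0 fell, they took 0.0397–0.0429% of the counts in WT and 0.0816–0.0836% in anti–IL-17A libraries, and their part in the checkpoint counts was not tested. With scaling on the macrophage identity genes, 0 T cell genes rose and 2 fell, and their median turned from 1.13 to -0.39. Cd274, which encodes PD-L1, had a log2 fold change of -0.34 against WT, which was not called, and of -3.45 against Vehicle.

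Of 17 complement genes, 8 rose and 2 fell, where 9.65% of all genes were called higher and 9.04% lower. The median log2 fold change was 0.31 (-1.21 with scaling on the macrophage identity genes, where 0 rose and 9 fell). C1qb measured 18590, 19756 and 19583 in WT, 18302, 16518 and 18049 in Vehicle, and 57984, 57428 and 55526 in anti–IL-17A libraries, a log2 fold change of 1.56 against WT. Cfd, which encodes factor D and is abundant in adipocytes, fell by 3.40 on the log2 scale. Of 13 adipocyte genes, Cfd among them, 1 rose and 4 fell. They took 0.0462–0.0468% of the counts in WT and 0.0311–0.0337% in anti–IL-17A libraries. The part of adipocyte RNA in the change of Cfd was not tested.

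Antigen presentation lay near the lean level, with shares called read against the 18.7% of all genes called in either direction. Of 13 MHC class II genes, 2 fell and 0 rose, with a median log2 fold change of -0.13, and of 14 MHC class I genes none was called, with a median of 0.04 (-1.65 and -1.49 with scaling on the macrophage identity genes, where 13 and 14 fell). Cd74, the invariant chain gene, measured 218503, 226162 and 232003 in WT, 45281, 43229 and 47672 in Vehicle, and 210451, 210641 and 199097 in anti–IL-17A libraries. The log2 fold change was -0.13 against WT, short of the fold limit, and 2.19 against Vehicle. H2-DMb2, a peptide-loading chain, fell by 1.60 on the log2 scale. B2m, the class I light chain gene, had a log2 fold change of -0.23 against WT and of -2.22 against Vehicle.

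In lipid metabolism the shares called are read against the 18.7% called over all genes. Of 17 genes for the LXR and PPAR receptors and lipid efflux, 5 rose and 1 fell with a median log2 fold change of 0.86, whereas with scaling on the macrophage identity genes 1 rose and 5 fell with a median of -0.66. Msr1, a scavenger receptor gene, rose by 2.56, Cd36, the fatty acid transporter gene, by 2.03, and Abcg1, a cholesterol exporter gene, by 1.95 on the log2 scale. Plin2, the lipid droplet coat gene, measured 14903, 15290 and 15069 in WT, 113966, 112820 and 111400 in Vehicle, and 69132, 68797 and 68809 in anti–IL-17A libraries, a log2 fold change of 2.19 against WT. Of 23 genes of cholesterol and fatty acid synthesis, 4 fell and 1 rose, a share near that over all genes, with a median of -0.15 (-1.67 with scaling on the macrophage identity genes, where 19 fell). Scd1, the stearoyl-CoA desaturase gene, fell by 1.91 and Fasn, the fatty acid synthase gene, by 1.36 on the log2 scale. Of 22 fatty acid oxidation genes, 1 rose and 0 fell, with a median of 0.08 (-1.44 with that scaling, where 18 fell).

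Of 22 genes of glycolysis and glucose uptake, 3 rose and 1 fell, a share near the 18.7% called over all genes, with a median log2 fold change of 0.63 (-0.89 with scaling on the macrophage identity genes, where 1 rose and 10 fell). Hk3, a myeloid hexokinase gene, measured 856, 814 and 954 in WT, 4502, 5006 and 4496 in Vehicle, and 6107, 5142 and 5109 in anti–IL-17A libraries, a log2 fold change of 2.64 against WT and of 0.22 against Vehicle. Pdk4, which holds back pyruvate oxidation, fell by 2.12 on the log2 scale against WT. None of 23 respiratory chain genes was called, with a median of 0.39 (-1.14 with that scaling, where 19 fell). Without the fold limit, 16 of the respiratory chain genes passed as higher and 1 as lower. Of the glycolysis and glucose uptake genes, 14 then passed as higher and 3 as lower. Over all genes 20.1% passed as higher and 18.1% as lower.

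Of 21 immediate early genes, which ERK and other signals induce within minutes, 3 fell and 0 rose (14.3% called). Over all genes 9.04% were called lower and 18.7% in either direction. Without the fold limit 15 of the 21 passed as lower and 4 as higher. The median log2 fold change was -0.56 (-2.08 with scaling on the macrophage identity genes, where 18 fell). Egr1, a zinc finger factor induced by ERK signaling, measured 182654, 184386 and 188094 in WT, 135926, 139153 and 133754 in Vehicle, and 61395, 59310 and 61482 in anti–IL-17A libraries, a log2 fold change of -1.61 against WT. Of 26 genes of SHP2 and Ras-ERK signaling, 1 rose and 2 fell, with a median of -0.09 (-1.62 with that scaling, where 22 fell). The 2 that fell were Gab1, a SHP2-binding scaffold gene, by 1.30, and Spry2, a feedback inhibitor gene, by 1.16 on the log2 scale. Ptpn11, which encodes SHP2 and whose mutant allele cannot be told from the WT allele in these counts, measured 2575, 2580 and 1703 in WT, 2290, 2263 and 1443 in Vehicle, and 1871, 2017 and 2516 in anti–IL-17A libraries. The groups overlapped (log2 fold change -0.10, adjusted p = 0.706, edgeR). Of 16 antioxidant genes, 2 rose and 0 fell, and of 16 unfolded protein response genes, 0 rose and 1 fell, with medians of -0.02 and -0.29 (-1.54 and -1.81 with that scaling, where 10 and 16 fell).

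Cell cycle genes were higher than in lean ATMs. Of 24, 16 rose and 0 fell, where 9.65% of all genes were called higher. The median log2 fold change was 1.29, whereas with scaling on the macrophage identity genes 0 rose and 1 fell with a median of -0.24. Top2a, a topoisomerase of dividing cells, measured 531, 614 and 487 in WT, 172, 178 and 153 in Vehicle, and 1327, 1234 and 1600 in anti–IL-17A libraries. The groups did not overlap, with Vehicle lowest, and the log2 fold change against WT was 1.35 (-0.18 with scaling on the macrophage identity genes). Mki67, which encodes the proliferation marker Ki-67, stood 1.10 above WT on the log2 scale (adjusted p = 0.000906, edgeR), 0.98 without WT replicate 3 and -0.42 with that scaling. Bub1, a mitotic checkpoint kinase gene, rose by 2.36 on the log2 scale. The counts do not say which cells were dividing.

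**Figure D4:**
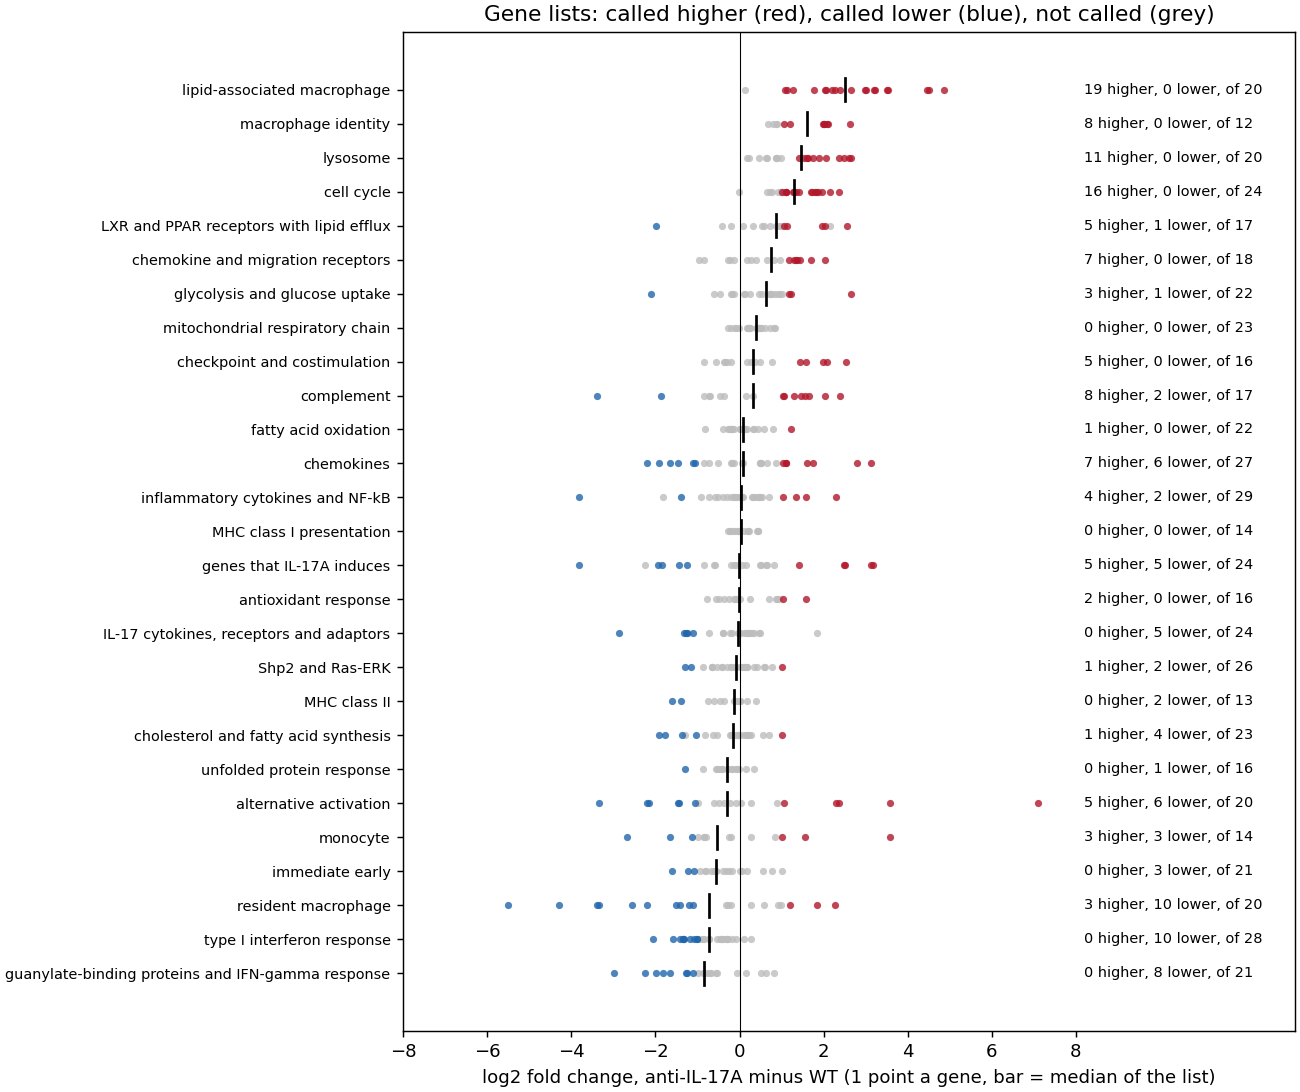
Log2 fold change of anti–IL-17A against WT (x axis) for each gene of 27 lists, with points in red for genes called higher, blue for genes called lower and grey for genes not called, and a bar at the median. The lipid-associated macrophage genes have a median of 2.51, and the type I interferon and resident macrophage genes each one of -0.72.

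Markers of other cell types differed as well, and shares called are read against the 9.65% of all genes called higher and 9.04% called lower. Of 11 mast cell and eosinophil genes, 7 rose and 1 fell, and the list took 0.0288–0.0304% of the counts in WT, 0.0965–0.105% in Vehicle and 0.185–0.193% in anti–IL-17A libraries. Tpsb2, a mast cell tryptase gene, measured 2382, 2716 and 2528 in WT, 13758, 12178 and 13375 in Vehicle, and 22518, 22792 and 21262 in anti–IL-17A libraries, a log2 fold change of 3.13 against WT. The mast cell list kept its direction with scaling on the macrophage identity genes, at 5 higher and 4 lower and a median log2 fold change of 1.17. Of 12 neutrophil genes, 5 rose and 1 fell with a median of 0.73 (-0.79 with that scaling, where 0 rose and 5 fell), and the list took 0.0549–0.0571% of the counts in WT, 1.82–1.91% in Vehicle and 0.0509–0.0529% in anti–IL-17A libraries. Cd8a, which encodes a CD8 chain of cytotoxic T cells, measured 310, 251 and 375 in WT, 18.7, 88.1 and 86.8 in Vehicle, and 1229, 1676 and 1501 in anti–IL-17A libraries, a log2 fold change of 2.23 against WT.

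B cell and mesothelial genes were lower, where 9.04% of all genes were called lower and 9.65% higher. Of 8 B cell genes, 6 fell (3 without anti–IL-17A replicate 1, WT replicate 2 or WT replicate 3) and 0 rose, with a median log2 fold change of -1.24 (-2.76 with scaling on the macrophage identity genes), and Cd79a, a chain of the B cell receptor, fell by 1.95 on the log2 scale. All 9 mesothelial genes fell, with a median of -4.48. Upk3b (chr5:136038496-136046487, plus strand), a surface protein gene of mesothelium, measured 19256, 20287 and 20237 in WT, 180, 232 and 245 in Vehicle, and 413, 509 and 627 in anti–IL-17A libraries. Of 15 fibroblast and adipose progenitor genes, 1 rose and 4 fell, with a median of -0.49 (-2.01 with scaling on the macrophage identity genes), and they took 3.26–3.36% of the counts in WT and 2.63–2.68% in anti–IL-17A libraries. Of 10 endothelial genes 0 rose and 1 fell, of 12 dendritic cell genes 0 rose and 3 fell, and of 9 NK cell genes 3 rose and 1 fell. With scaling on the macrophage identity genes, 0 genes of these lists rose, and 8 endothelial, 9 dendritic cell and 4 NK cell genes fell.

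Genes of organs that border the visceral fat gave many of the highest fold changes. Akr1b7 (chr6:34412334-34423142, plus strand), an aldo-keto reductase gene abundant in the vas deferens, measured 425128, 430876 and 433652 in WT, 0, 0 and 4.49 in Vehicle, and 1748, 1799 and 1767 in anti–IL-17A libraries, with 27.2% of its exon bases shared with Gm13857. Crisp1, a secretory protein gene of the epididymis, measured 99195, 98367 and 103356 in WT and 4494, 4165 and 5122 in anti–IL-17A libraries. Of 15 epididymis genes, 7 fell and 1 rose, where 9.04% of all genes were called lower and 9.65% higher. Their median log2 fold change was -3.43, or -1.30 with genes at or below 3 counts per library in 1 group set to their bound. Svs5, a seminal vesicle secretion gene, measured 33.3, 17.9 and 18.5 in WT and 5633, 5676 and 5258 in anti–IL-17A libraries, and 8 of 9 genes of that list rose, with a median of 7.97, or 7.54 at the bound. Prm2, a protamine gene of spermatids, rose by 4.18 on the log2 scale, with 6 of 7 spermatid genes called higher. A kidney list, put together after values were seen, took 0.00477–0.00567% of the counts in WT, 0.00289–0.00364% in Vehicle and 0.0265–0.0272% in anti–IL-17A libraries. A prostate and vas deferens list, also put together after values were seen, had 10 of 11 genes called lower. It took 2.95–2.97% of the counts in WT, 0.00115–0.00167% in Vehicle and 0.0211–0.0243% in anti–IL-17A libraries.

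**Figure D5:**
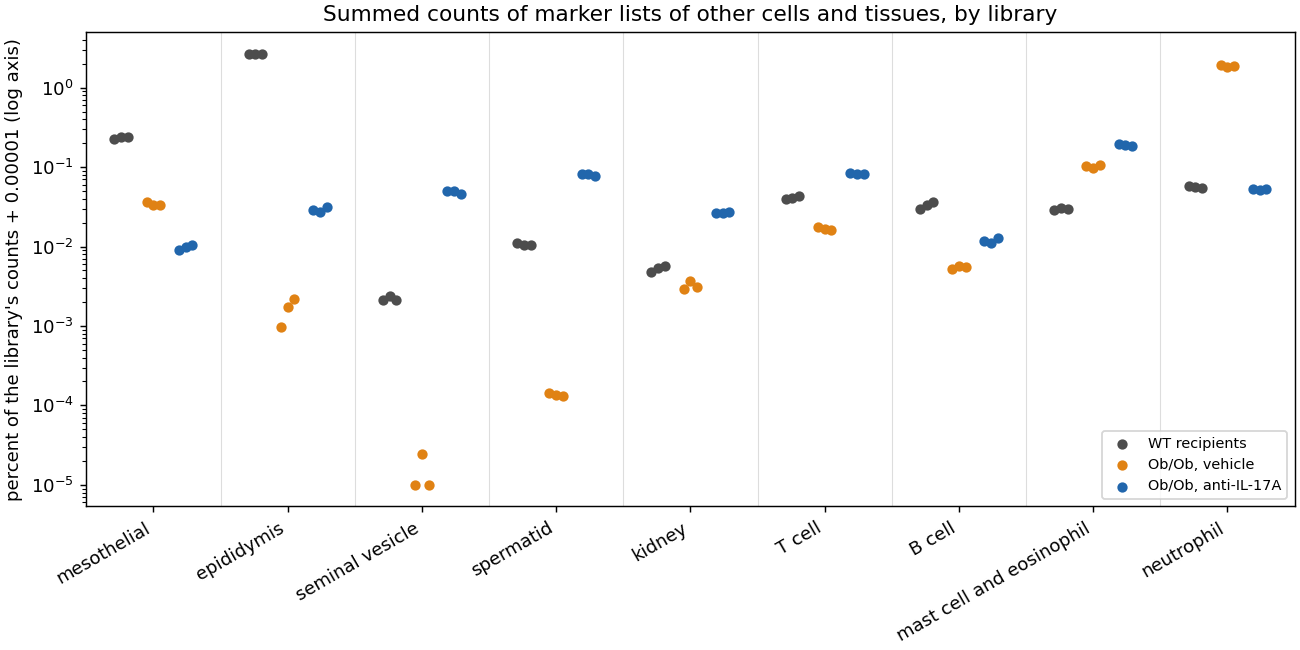
Percent of each library's counts plus 0.00001 (log axis) on the genes of 9 other-cell and other-tissue lists in WT, Vehicle and anti–IL-17A libraries, with a point for each library. The epididymis list takes 2.64–2.66% in the WT libraries and at most 0.0311% in each anti–IL-17A library, and the neutrophil list is highest in Vehicle at 1.82–1.91%.

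The 10 highest fold changes in each direction were taken from called genes that averaged 50 normalized counts or more and whose groups did not overlap. They mostly rested on a group near 0, and the increases were mostly genes of other organs. The increases were Slc12a1, Miox, Tmem52b, Acsm2, Slc22a8 and Ugt3a2, genes of the kidney tubule, Svs1, Svs3a and Svs4 of the seminal vesicle, and Cyp11b1 of the adrenal cortex. Slc12a1 measured 0, 0 and 0 in WT and 664, 973 and 1085 in anti–IL-17A libraries, at least 254-fold higher than a floor of 3 counts per library. The decreases were Pnliprp1, Fcgbp, Tcaf3, Gm16063, Atp10b, Wee2, Gm9573, 9530053A07Rik, Ren2 and Mrgprg. Pnliprp1, a pancreatic lipase-related gene, measured 2308, 1999 and 2078 in WT and 0, 0 and 0 in anti–IL-17A libraries, at least 888-fold lower. None of these 20 genes belongs to the macrophage lists.

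Of 45 genes that the study names for ATMs, 6 were called higher and 2 lower than WT, where 18.7% of all genes were called, and the median log2 fold change was 0.06 (-1.46 with scaling on the macrophage identity genes, where 1 rose and 35 fell). Against Vehicle 6 of them were higher and 20 lower, with a median of -0.83 (3, 34 and -2.25 with that scaling). The study chose these genes on the same samples, so their direction against Vehicle is not independent evidence. Those above WT were Chil3 at 3.58, Cd8a at 2.23, Fpr1, a formyl peptide receptor gene, at 1.71, Cx3cr1, the fractalkine receptor gene, at 1.43, Cd3d, a T cell receptor complex gene, at 1.09, and Il10 at 1.05, and those below were Pdk4 at -2.12 and Mapk13, a p38 kinase gene, at -1.75 on the log2 scale. Fpr1 measured 32.2, 38.9 and 46.9 in WT, 10796, 10615 and 10381 in Vehicle, and 115, 88 and 186 in anti–IL-17A libraries. Cx3cr1, Cd3d and Il10 changed sign with scaling on the macrophage identity genes, at -0.10, -0.43 and -0.47. Cx3cr1 lost its call without anti–IL-17A replicate 2 or 3 or WT replicate 1 or 3 (adjusted p from 0.0585 to 0.166, edgeR), Il10 without WT replicate 2 (log2 fold change 0.97), and Socs1 gained one without anti–IL-17A replicate 1 (-1.04), WT replicate 2 (-1.01) or WT replicate 3 (-1.03). Myd88, Rela, Traf6, Socs1 and Nfil3 had log2 fold changes of -0.29, -0.12, -0.40, -0.99 and -0.61 against WT and were not called.

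Over all genes, 6051 (35.5%) were called between anti–IL-17A and Vehicle libraries, 3821 higher (22.4%) and 2230 lower (13.1%), beside the 3189 called against WT. Both counts use the same anti–IL-17A libraries, and the number of genes called does not measure how far a profile lies from another.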

How the data were processed

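RNA-seq was performed on F4/80+ ATMs sorted from visceral fat, and the authors deposited raw gene counts. Per the labels and the methods, reads were aligned to mm10 with STAR 2.7.2a and assigned to genes with featureCounts 2.0.1 without regard to strand, so overlapping and antisense genes cannot be told apart. Reads below a mapping quality of 10 were dropped, so genes with near-identical copies (Chil3, the Svs and Cd209 genes) are uncertain. The table was used as deposited. Its smallest gene total over the 15 ATM libraries was 54 counts.

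All 15 ATM libraries (WT, Vehicle, GLP1, IL17A and Combo, 3 each) were fitted together in R 4.3.3 with edgeR 4.0.16 (limma 3.58.1), using TMM scaling, filterByExpr (0 genes removed) and robust quasi-likelihood F tests with group as the only term. Benjamini-Hochberg adjustment ran over all 17059 genes, and a gene was called at an adjusted p below 0.05 and an absolute log2 fold change above 1. The biological coefficient of variation was 32.5%. SEs were derived from the fold change and its F value. Total counts, from 24876074 to 45300263 per library, set the counting precision.

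Gene lists were described by counts and medians without a set test. The members and lists were chosen with earlier results of these data known. Genes were named by 2 rules, namely the 10 highest fold changes in each direction (mean of at least 50 normalized counts, no overlap of replicates), and the called or most abundant members of each list together with genes named by the study. Other examples were chosen after their values were seen. For a gene with at most 3 counts in each library of 1 group, the fold is a bound against 3 counts per library.

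Replicate numbers did not pair the samples (correlation of deviations between same-numbered WT and anti–IL-17A libraries -0.003 to 0.018). In a test on simulated data for anti–IL-17A against WT, edgeR recovered 166 of 200 genes changed 4-fold with 0 other calls among 16911 genes, and DESeq2 1.42.0 recovered 175 with 22 others among 17059. Alternatives were DESeq2, its size factors, other filters, no fold limit, only the 6 libraries compared, a replicate block, leaving out each library, and scaling on the 12 macrophage identity genes, the last chosen after seeing the data. Coordinates are those of GENCODE M21 (GRCm38), a release close to the authors' own, and promoter sequences are from RefSeq (GRCm38.p6).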

Additional observations from a re-analysis of the deposited data

How the results depend on the processing

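Against WT, 3189 genes were called. The count was 3181 with DESeq2's size factors, 3548 with DESeq2 (3115 called by both tools), 3189 without a low-count filter, 3152 with a mean of at least 10 counts, 3699 with only the 6 libraries compared, and 2740 to 2920 when any 1 library was left out. Without the fold limit it was 6531, of which 3436 were higher and 3095 lower. Against Vehicle, 6051 were called, 5795 to 6023 when 1 library was left out, 6323 with DESeq2, and 9914 without the fold limit, of which 4259 were lower.

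Scaling on the 12 macrophage identity genes, chosen after seeing the data, called 11681 genes against WT (416 higher and 11265 lower), so that 3.56% instead of 51.6% of calls were higher, and 10668 against Vehicle (1767 higher and 8901 lower). It moved the median log2 fold change of all genes to -1.52 and -1.24, which follows from its construction, since those genes are set equal on average between the libraries. Under it 7 of the 136 genes named against WT reversed, namely Ctla4 (-0.078), Il10 (-0.47), Csf3 (-0.10), Top2a (-0.18), Mki67 (-0.42), Cd3d (-0.43) and Cx3cr1 (-0.10). Which scaling is nearer to RNA amounts per cell was not tested.

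With the replicate number as a block, 3056 genes were called against WT and 5955 against Vehicle, and among the named genes Cx3cr1 lost its call (adjusted p = 0.0575, edgeR). The replicate numbers did not pair the samples, so this says nothing of a weaker effect. Leaving out 1 library moved small counts of list members, with 0 in place of 1 called higher for the Ras-ERK, synthesis and adipocyte lists, 1 in place of 0 higher for immediate early genes (without anti–IL-17A replicate 2 or WT replicate 2), 1 in place of 0 lower for chemokine receptors (without anti–IL-17A replicate 3) and 4 in place of 2 lower for inflammatory genes (without anti–IL-17A replicate 2). With DESeq2, Acsm2 (adjusted p = 0.0781), Ifi44 (0.103) and Rsad2 (log2 fold change -0.99) lost their calls. Donor, where it differed, and other-tissue RNA cannot be told apart from the groups, and differences at the level of a few counts per library were not detectable at this depth.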
